A study of Mus musculus with 4 samples.

Results

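Injured astrocytes with transcripts of Lcn2 or Timp1 were examined in sorted cells of the mouse spinal cord. A cell was a member when it came from the injured cord, had more than 500 and fewer than 50000 gene UMIs (unique molecular identifiers, each a counted transcript), and had a UMI in at least 2 of the 6 astrocyte genes Aqp4, Slc1a2, Gja1, Aldh1l1, Gjb6 and Slc1a3. It also had no UMI of Cldn5 (endothelium), Pdgfra (oligodendrocyte precursors) or Col3a1 (fibroblasts), at most 1 UMI of the microglial genes C1qa, C1qb and C1qc together, and at most 1 UMI of the cilia genes Tmem212, Cfap299 and Dnah12 together. Of the 332 injured cells that passed this astrocyte gate, the 149 with at least 1 UMI of Lcn2 or Timp1 were selected as members. They were 149 of the 919 cells in the injured library and of 5078 cells in the whole series. The 183 gate cells with no UMI of either gene served as comparison cells.

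Cx30-tdTomato mice carry a tdTomato reporter that Cre recombination under Cx30, an astrocyte gap junction gene, switches on after tamoxifen. They entered the study at 8 to 12 weeks of age. All of them, uninjured controls included, received an AAV library into a vein, 14 days before the injury was made in the injured group. Each virus of the library was built to carry 1 enhancer with a minimal promoter, a fluorescent reporter and a barcode naming the enhancer. The study reports that packaging in a pool left a high share of barcodes paired with another enhancer. It also reports that correct pairs were likelier to be detected than discordant ones. Segments of 5 mm were taken around a spinal cord injury at 3 days, or at the matching level of uninjured cords, and tdTomato+ cells were sorted. Each condition had 1 gene expression library and 1 barcode library from the same cells, with animals pooled and not labelled by cell, so no value below has replicates and no test between conditions was possible. The intervals given are 95% intervals of counting error only and say nothing about the spread between animals.

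Astrocytes answer injury by becoming reactive: they enlarge, raise intermediate filament proteins such as GFAP and vimentin, and release factors that act on immune cells and on the matrix. Lcn2 encodes lipocalin 2, a secreted protein that binds iron-carrying siderophores. Timp1 encodes a secreted inhibitor of matrix metalloproteinases. Both are widely used markers of reactive astrocytes and are nearly silent in the healthy cord.

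The members were chosen by their Lcn2 and Timp1 UMIs, so these values are given as a description. Members made up 44.9% of the injured gate cells (39.4 to 50.4, exact Clopper-Pearson interval). In the uninjured library 2 of 3812 gate cells had a UMI of either gene, or 0.0525% (0.00635 to 0.189). A member held 1 to 91 UMIs of the pair, with a median of 2.00. Of the 149 members, 100 had Timp1 alone, 18 had Lcn2 alone and 31 had both. Timp1 was thus the more frequent gene, while Lcn2 was concentrated in fewer cells, with up to 71 UMIs in a cell against up to 47 of Timp1. The 27 members with 10 or more UMIs held 68.6% of the 1035 UMIs of the pair, and the 55 members with a single UMI held 5.31%. After each gate cell of at least 1000 gene UMIs was thinned to 1000, 64 of 317 cells (20.2%) still had a UMI of either gene, and 7 of these had both.

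**Figure D1:**
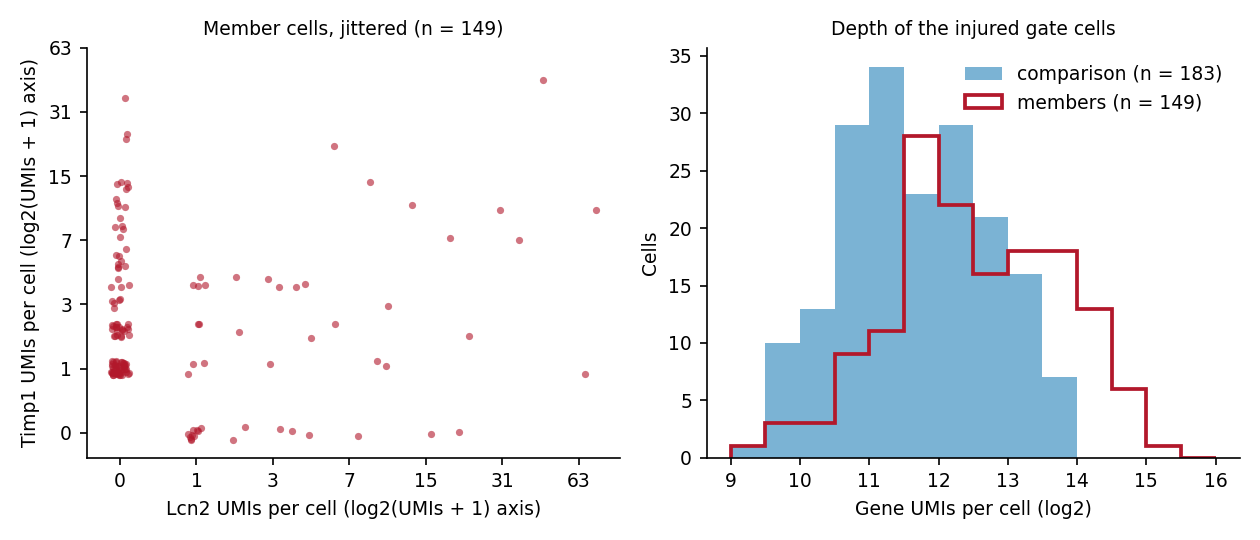
Left, Lcn2 against Timp1 UMIs in each of the 149 members, on log2(UMIs + 1) axes with jitter. Right, gene UMIs per cell (log2) of the 183 comparison cells (filled) and of the members (outline). Most members sat at 0 on the Lcn2 axis, and members were deeper than comparison cells.

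The bases before the start sites of both genes are shown because these genes define the members. They come from RefSeq (GRCm38.p6) and are written 5′ to 3′ on the gene's strand, with annotated untranslated bases left out. Capitals mark a match to one of the motifs searched on both strands, TGANTCA (the AP-1 site), TTGCNNAA (the C/EBP site) or GAANNTTC (the core of the heat shock element). Lcn2 lies on chromosome 2, minus strand (chr2:32387798-32387989, ending 58 bases before the RefSeq start site and overlapping an exon of an alternative GENCODE transcript). Timp1 lies on the X chromosome, plus strand (chrX:20869916-20870165).
Lcn2: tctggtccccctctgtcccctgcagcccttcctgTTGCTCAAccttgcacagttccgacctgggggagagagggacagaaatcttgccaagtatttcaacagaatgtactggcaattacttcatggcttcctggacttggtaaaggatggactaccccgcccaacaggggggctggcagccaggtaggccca
Timp1: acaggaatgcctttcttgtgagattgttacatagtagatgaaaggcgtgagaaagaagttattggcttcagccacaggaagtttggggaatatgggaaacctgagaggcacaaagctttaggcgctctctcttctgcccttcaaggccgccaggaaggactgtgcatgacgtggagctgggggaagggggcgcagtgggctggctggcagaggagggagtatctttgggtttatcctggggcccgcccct
The Lcn2 window held 1 C/EBP match and no match to the other motifs. The Timp1 window held none of them. Over all 32851 promoters of the table, 250 bases each, a C/EBP match occurred in 9.56%, an AP-1 match in 6.75% and a heat shock match in 6.69%. A match is a string of letters and not a measured binding site.

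Members were deeper than the comparison cells, with a median of 5706 gene UMIs (582 to 44848) against 3115 (608 to 15120). A gene is found more easily in a deeper cell, so members were paired 1 to 1 with comparison cells of like depth, within 0.25 on the log2 scale. This gave 121 pairs, with medians of 4479 and 4687 gene UMIs and sums of 679059 and 654088. The pairing left out 28 members and 62 comparison cells. The libraries shared 7 cell barcodes, of which 1 was an injured gate cell and none a member.

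Cells that should lack these genes gave the level of free RNA in the injured library. In 108 injured microglia cells, defined by at least 10 C1q UMIs and more of them than of the 6 astrocyte genes, Lcn2 reached 14.1 CPM (UMIs per 1000000 gene UMIs) and Timp1 10.7 CPM, at a median depth of 15774 gene UMIs. The members' own levels, 366 and 474 CPM, were set by the rule. A Timp1 UMI was found in 8.33% of the microglia and an Lcn2 UMI in 7.41%, or in 0% and 1.94% after thinning. Over all gate cells, which were not chosen by these genes, Lcn2 stood at 224 CPM and Timp1 at 290.3 CPM. At the microglial rate per gene UMI the gate cells would hold 49.8 UMIs of the pair, and they held 1035. The microglia were deeper than the gate cells, whose median was 4123 gene UMIs. A background scaled per cell, from 25 Lcn2 and 19 Timp1 UMIs in the 108 microglia, was not computed and could differ. The 55 members with a single UMI are of the order of the 49.8 UMIs, and how many of them carried a free transcript was not tested.

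The astrocyte label was checked on genes that the gate did not use. Slc1a2, the main glutamate transporter, and Aqp4, the water channel of astrocyte endfeet, were found in 97.3% and 93.3% of members, but both belong to the gate. Outside it, the astrocyte genes Clu, Sparcl1 and Gpr37l1 had UMIs in 99.2%, 94.2% and 86.0% of matched members. Of 12 measured identity genes outside the gate, none was 2-fold apart between the sets, and their median log2 ratio was -0.00. The reporter tdTomato-WPRE was found in 149 of 149 members, at 2347 CPM, against 31.5 CPM in microglia. The name of this feature includes a WPRE element, and so does that of the AAV backbone in the study's methods. The part of viral transcripts in its counts was not tested.

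Marker transcripts of other cell types were found in both matched sets, from 1 UMI for neutrophil markers to 276 UMIs for oligodendrocyte markers in members. Neutrophil markers summed to 1 UMI in each, with 7 of 8 at 0, and monocyte and macrophage markers to 10 UMIs in members and 16 in comparison cells. Microglia markers outside the rule summed to 85 and 115 UMIs, with Tmem119 and Aif1 at 0 in both sets, and no cell held more than 7. Endothelial markers summed to 13 and 6 UMIs, mural markers to 23 and 24, fibroblast markers outside the rule to 71 and 95, and erythrocyte markers to 3 and 2. Microglia markers outside the rule had a UMI in 43.0% of matched members and 55.4% of matched comparison cells. Oligodendrocyte markers summed to 276 UMIs in members, 54 of them in 1 cell, and to 196 in comparison cells. They had a UMI in 73.6% of matched members and 70.2% of matched comparison cells. Neuron markers summed to 185 and 64 UMIs, with 63 in 1 member, and Stmn2 alone held 153 and 18 of them. A UMI of a neuron marker was found in 28.9% of matched members and 30.6% of matched comparison cells. Ependymal markers outside the rule summed to 111 and 79 UMIs, in 39.7% and 32.2% of the matched cells. Markers of oligodendrocyte precursors outside the rule summed to 272 and 126 UMIs, of which Olig1, a factor that astrocytes also transcribe, held 239 and 107. Their defining genes Sox10 and Gpr17 were at 0 in members. Precursor markers outside the rule had a UMI in 67.8% of matched members and 46.3% of matched comparison cells. The part of these cell types in the differences below was not tested.

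To ask what else set the members apart, the UMIs of each gene were summed over the 121 members and over their 121 partners. A gene was measured when it reached 100 CPM in a set and had a UMI in at least 10% of the cells of the higher set. The genes of the rule were left out. Ratios of CPM are given with their exact conditional binomial interval, and log2 ratios were taken after adding 10 CPM to both sides. Of 2010 measured genes, 61 were at least 2-fold higher in members (3.03% of those measured) and 33 were at least 2-fold lower (1.64%). The median log2 ratio of all measured genes was 0.07, and 1090 of them were above 0. Of the 61 higher genes, 40 reached 100 CPM in members alone, and of the 33 lower genes, 27 did so in comparison cells alone. Such genes could be measured only by being higher in that set. After thinning of the pairs, all 61 and all 33 kept their direction, and 45 and 24 of them stayed at least 2-fold apart. These thinned counts are a part of the same UMIs that gave the calls. With other choices of cells, 36 of the 61 and 10 of the 33 were called again when all cells were thinned. The numbers were 35 and 15 without pairing, 16 and 4 with Lcn2 alone as the selecting gene, and 24 and 12 in female cells. When a member needed at least 3 UMIs of the pair they were 57 and 27. When the cell with the most UMIs of each gene was left out of both sets, 50 of the 61 and 24 of the 33 were still measured and at least 2-fold apart.

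**Figure D2:**
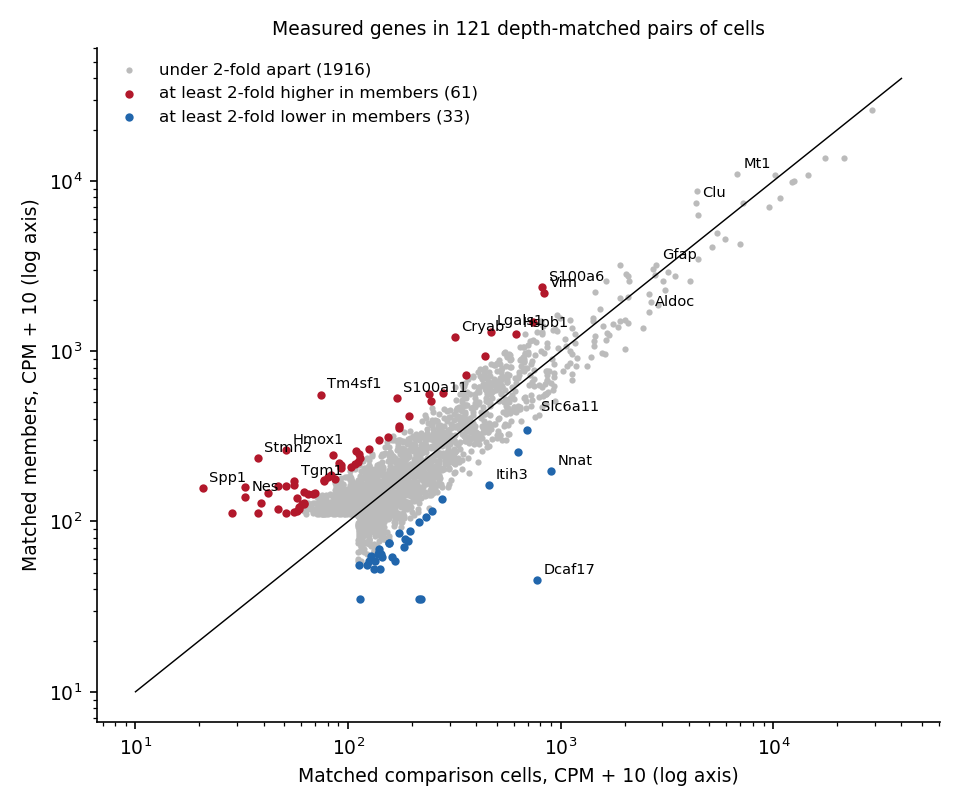
Level of each of the 2010 measured genes in the 121 matched comparison cells (x axis) and in the 121 matched members (y axis), as CPM + 10 on log axes. Red points mark the 61 genes at least 2-fold higher in members and blue points the 33 at least 2-fold lower, and Gfap lies near the line of equal levels.

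Among the markers named for this state, the filament gene Gfap was the least different. It had 3181 CPM in members and 2793 CPM in comparison cells, a ratio of 1.14 (1.07 to 1.21), and 65.4 CPM in uninjured gate cells. Gfap was found in 96.7% and 91.7% of the matched cells, with medians of 15 and 10 UMIs and ranges of 0 to 87 and 0 to 164 that overlapped. Its log2 ratio changed sign with the cells used, from -0.48 in female cells alone (17 pairs) to 0.41 in thinned cells, and was -0.06 when a member needed at least 3 UMIs of the pair. Gfap was thus far above its uninjured level in injured gate cells with and without Lcn2 or Timp1, and the direction of the difference between them depended on the cells used.

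Vim, which encodes the filament protein vimentin, differed more in its summed level. It had 2178 CPM in members, 824 CPM in comparison cells and 6.11 CPM in uninjured cells, a ratio of members to comparison of 2.64 (2.39 to 2.92). A Vim UMI was found in 84.3% of members and 54.5% of comparison cells, and 33.4% of the comparison UMIs came from 1 cell. Medians were 4 and 1 Vim UMIs per cell, with ranges of 0 to 128 and 0 to 180 that overlapped. Hspb1, a small heat shock protein, had 1258 CPM in members, 608 CPM in comparison cells and 5.41 CPM in uninjured cells, a ratio of 2.07 (1.83 to 2.33). Tgm1, a transglutaminase that crosslinks proteins, had 110 UMIs in members and 30 in comparison cells, or 162 and 45.9 CPM, a ratio of 3.53 (2.34 to 5.48). In the uninjured cells Tgm1 had 1 UMI in all. For these 3 genes the level in comparison cells lay between that of uninjured cells and that of members. In microglia Vim stood at 639 CPM, Hspb1 at 10.7 CPM and Tgm1 at 0.563 CPM, so of the 3 genes Vim is the one that this other cell type of the suspension also held at a like level.

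With Lcn2 alone as the selecting gene, Vim and Tgm1 were under 2-fold apart, with log2 ratios of 0.56 and 0.84, and Hspb1 stood at 1.02. In that comparison cells with Timp1 alone stood on the other side. In male cells alone (46 pairs) Vim had a log2 ratio of 0.99, and with Timp1 alone as the selecting gene Hspb1 had one of 0.88, both just under 2-fold.

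Nes, the filament gene of neural progenitors and reactive astrocytes, was higher still in members relative to its low level, with 88 UMIs against 15, a ratio of 5.65 (3.25 to 10.5). It was found in 29 of 121 members and 8 of 121 comparison cells, and in uninjured cells it had 0.555 CPM. Of the Nes UMIs in members, 28.4% came from 1 cell, and with Lcn2 alone as the selecting gene its log2 ratio was -0.00. Nes reached 100 CPM in members alone, so its place among the higher genes was in part set by the limit on level, whereas Vim and Gfap passed that limit in both sets.

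Of the 12 genes known as the A2 list, first grouped in astrocytes after ischemia, 4 were measured. Of these, Tm4sf1, Cd109 and Tgm1 reached 100 CPM in members alone, so that they could enter only by being higher there, and nothing is read from their count. Tm4sf1, a membrane protein of the tetraspanin-like L6 family, had 371 UMIs in members and 42 in comparison cells (546 and 64.2 CPM), a ratio of 8.51 (6.17 to 12). It was found in 32.2% of members and 9.92% of comparison cells, and 27.0% and 40.5% of its UMIs came from 1 cell each. Cd109, a surface protein that binds TGF-β, had 81 and 19 UMIs, a ratio of 4.11 (2.47 to 7.17). S100a10, the partner of annexin A2, had 922 and 428 CPM, a ratio of 2.15 (1.87 to 2.49), and Tgm1 is described above. S100a10 had a log2 ratio of 0.01 with Lcn2 alone as the selecting gene and of 0.59 in female cells alone. Of the A1 list, grouped after inflammatory stimulation, 1 gene of 11 was measured: the class I antigen gene H2-D1, with 197 and 112 CPM, a ratio of 1.77 (1.32 to 2.38). The pan-reactive list, whose Lcn2 and Timp1 were used by the rule, had 5 further measured genes, of which Vim and Hspb1 were at least 2-fold higher. Serpina3n, a secreted protease inhibitor of this list, had 459 and 323 CPM, a ratio of 1.42 (1.19 to 1.70).

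Of 7 measured genes of calcium-binding S100 proteins, all at 100 CPM in both sets, 3 were at least 2-fold higher. Their median log2 ratio was 0.86 (0.13 to 1.65), and 7 were above 0. S100a6 had 2362 CPM in members, 810.3 CPM in comparison cells and 17.8 CPM in uninjured cells, a ratio of 2.92 (2.64 to 3.22), and a log2 ratio of 0.60 in female cells alone. S100a11 had 521, 159 and 2.64 CPM, a ratio of 3.28 (2.63 to 4.12), and was found in 66.1% of members and 37.2% of comparison cells. S100b, the common astrocyte marker of the family, differed little, with 806 and 641 CPM, a ratio of 1.26 (1.11 to 1.43).

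The promoters of S100a11 and Hspb1 are shown as examples among the higher genes, chosen after their values were seen, because they held more than 1 match to a motif. S100a11 (chr3:93520246-93520487, plus strand) held 2 AP-1 matches. Hspb1 (chr5:135887669-135887918, plus strand) held 2 heat shock matches.
S100a11: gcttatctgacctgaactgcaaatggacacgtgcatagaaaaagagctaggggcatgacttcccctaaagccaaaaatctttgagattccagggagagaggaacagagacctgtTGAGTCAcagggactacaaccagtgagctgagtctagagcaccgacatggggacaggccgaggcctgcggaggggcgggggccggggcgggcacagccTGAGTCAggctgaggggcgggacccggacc
Hspb1: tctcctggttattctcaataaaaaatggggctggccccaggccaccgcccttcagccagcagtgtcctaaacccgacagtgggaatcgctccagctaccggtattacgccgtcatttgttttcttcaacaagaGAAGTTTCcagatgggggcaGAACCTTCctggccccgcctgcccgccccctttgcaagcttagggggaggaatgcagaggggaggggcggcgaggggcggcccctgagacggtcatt
Such matches were not common to the higher genes. Of the 61 genes at least 2-fold higher, 45 had a promoter in the table, and 2 of these held an AP-1 match (4.44%), 2 a C/EBP match (4.44%) and 3 a heat shock match (6.67%). Of the 33 lower genes, 23 had a promoter, and 5 of these held an AP-1 match (21.7%), 3 a C/EBP match (13%) and 3 a heat shock match (13%). Among 1582 measured genes with a promoter the shares were 6.07%, 9.86% and 6.32%. The lists are small, and their differences were not tested. These windows reach only 250 bases before the start site, and distal enhancers were not searched.

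Of 4 measured annexins and galectins, the galectins Lgals1 and Lgals3 were at least 2-fold higher. Lgals1 had 1293 and 459 CPM, a ratio of 2.82 (2.47 to 3.22), and was found in 86.0% of members and 43.8% of comparison cells. Its log2 ratio was 0.47 with Lcn2 alone as the selecting gene. It stood at 772 CPM in microglia, and the part of free RNA in this difference was not tested. Lgals3 had 169 and 65 UMIs, a ratio of 2.50 (1.87 to 3.39), but 60.0% of the comparison UMIs lay in 1 cell, and with Lcn2 alone as the selecting gene its log2 ratio was -1.22. Anxa2 and Anxa5 had ratios of 1.59 (1.14 to 2.23) and 1.41 (1.11 to 1.79). Lgals3 and Anxa2 reached 100 CPM in members alone, so nothing is read from the count of this list.

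Of 6 measured heat shock chaperones, also at 100 CPM in both sets, Cryab and Hspb1 were at least 2-fold higher. The list had a median log2 ratio of 0.70 (0.41 to 1.92). Cryab, the small heat shock protein alpha-B crystallin, had 1199 CPM in members and 309 CPM in comparison cells, a ratio of 3.88 (3.32 to 4.55), beside 151 CPM in uninjured cells. Its log2 ratio was 0.22 with Lcn2 alone as the selecting gene. The endoplasmic reticulum chaperone Hspa5 had 588 and 440.3 CPM, a ratio of 1.33 (1.14 to 1.56).

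**Figure D3:**
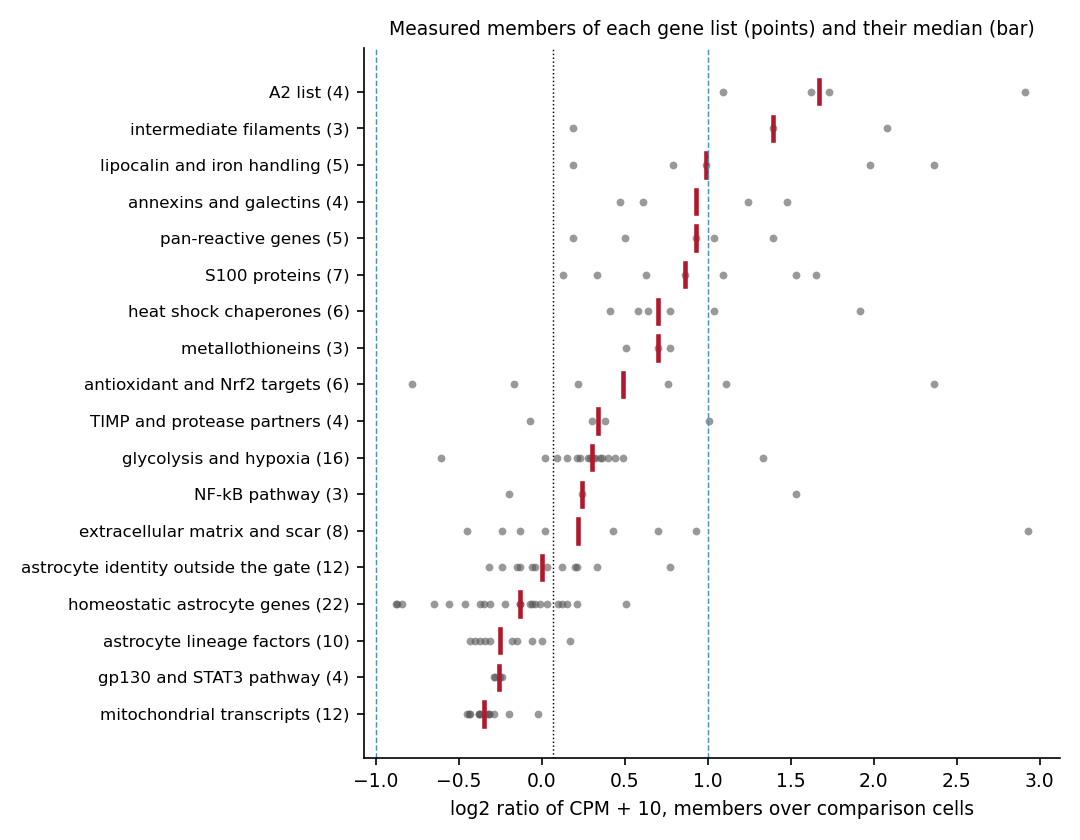
Log2 ratio of CPM + 10 in matched members over comparison cells for every measured gene (points) of the 18 lists with at least 3 measured genes, with the number measured in brackets and the median as a red bar. The dotted line is the median of all measured genes (0.07) and the dashed lines mark 2-fold, and the A2 list has the highest median (1.67) with 3 of its 4 genes at the limit on level in members alone, while mitochondrial transcripts have the lowest (-0.35).

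Genes of iron handling and of the oxidative stress response followed the same direction in part. Hmox1, the heme-degrading enzyme, had 172 UMIs in members and 27 in comparison cells, a ratio of 6.14 (4.07 to 9.58), and was found in 21.5% and 12.4% of the cells. In microglia it stood at 539 CPM against 253 CPM in matched members, and the part of free RNA in this difference was not tested. Trf, the iron carrier transferrin, had 69 and 12 UMIs, a ratio of 5.54 (2.98 to 11.2), but its log2 ratio was 0.51 in thinned cells and 0.66 with Timp1 alone as the selecting gene. The ferritin light chain Ftl1 had 876 and 503 CPM, a ratio of 1.74 (1.52 to 2.00), and Slc22a17, a lipocalin 2 receptor, 124 and 107 CPM, a ratio of 1.16 (0.832 to 1.61). Txn1, encoding thioredoxin, had a ratio of 2.22 (1.79 to 2.78) that was under 2-fold in male cells (a log2 ratio of 0.94), while the cystine transporter Slc7a11 was lower in members, at 0.559 (0.405 to 0.766). Hmox1 and Trf reached 100 CPM in members alone and Slc7a11 in comparison cells alone, so each could be measured only by being higher there. The 3 metallothioneins, metal-binding stress proteins, were each higher but under 2-fold: Mt1 had 10908 and 6730 CPM, a ratio of 1.62 (1.56 to 1.68).

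Spp1, encoding osteopontin, had the highest log2 ratio of all measured genes (2.93), with 100 UMIs in members and 7 in comparison cells. Of the member UMIs 40.0% lay in 1 cell, and Spp1 reached 7997 CPM in microglia against 147 CPM in matched members. The part of free RNA in this difference was not tested. Stmn2, a neuronal tubulin-binding protein, had 153 and 18 UMIs, of which 41.2% lay in 1 member, and its log2 ratio was -0.99 in female cells alone. Vgf and Tagln were also among the 12 highest, but 58.4% and 63.4% of their UMIs lay in 1 member each. The remaining genes of the 12 were spread over more cells: Clic1 (a chloride channel family protein), Cd109 and Emp3 (a membrane protein) were each found in over 30% of members and had ratios of 4.13, 4.11 and 3.67. The log2 ratio of Clic1 was 0.57 in thinned cells, that of Cd109 was 0.92 with Lcn2 alone as the selecting gene, and that of Emp3 was 0.66 with Lcn2 alone and 0.37 in female cells. All genes of this paragraph reached 100 CPM in members alone, so they could be measured only by being higher there.

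Genes of the signalling pathways known from reactive astrocytes were mixed. Of 12 genes of the gp130 and STAT3 pathway, 4 were measured and none was 2-fold apart. Stat3 had 95.7 CPM in members and 115 CPM in comparison cells, a ratio of 0.835 (0.590 to 1.18), and the receptor genes Lifr and Cntfr had ratios of 0.824 (0.572 to 1.18) and 0.809 (0.614 to 1.06). Of 3 measured NF-kB pathway genes, Cebpd, a C/EBP factor induced by inflammation, was 2-fold higher, with 160 and 49 UMIs, a ratio of 3.15 (2.27 to 4.43), and it stayed above 2-fold in all 16 other settings. Cebpd and Nfkbia reached 100 CPM in members alone, so they could be measured only by being higher there. Nfkb1 and Nfkbia had ratios of 0.861 (0.624 to 1.19) and 1.20 (0.835 to 1.73). The AP-1 genes Fos and Jund, which reached 100 CPM in comparison cells alone, were lower, with ratios of 0.349 (0.220 to 0.540) and 0.518 (0.349 to 0.759), but 56.2% of the Fos UMIs in comparison cells came from 1 cell, and over all unmatched cells its log2 ratio was 0.45. B2m, the class I light chain and an interferon-stimulated gene, had a ratio of 2.01 (1.58 to 2.58), and Ifitm3 one of 0.984 (0.732 to 1.32). The 16 cell cycle genes were not measured, at 275 and 106 UMIs in sum.

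The matrix and protease genes were mixed. Cd44, the hyaluronan receptor, had 205 CPM in members and 102 CPM in comparison cells, a ratio of 2.00 (1.48 to 2.72), with a log2 ratio of 0.93, and stood at 188 CPM in microglia. Cd63, a tetraspanin to which TIMP1 binds, had 1484 and 732 CPM, a ratio of 2.03 (1.82 to 2.26) with a log2 ratio of 0.26 with Lcn2 alone, and its partner Itgb1 had a ratio of 1.34 (0.930 to 1.93). The inhibitors Timp3 and Timp4 had ratios of 0.954 (0.787 to 1.16) and 1.24 (1.06 to 1.45), and neither was 2-fold apart. The proteoglycan gene Bcan was lower, at 0.722 (0.594 to 0.877).

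Genes of resting astrocyte function differed little. All 22 homeostatic genes were measured, none was 2-fold apart, and their median log2 ratio was -0.13 (-0.88 to 0.51). The lowest log2 ratio was that of the GABA transporter Slc6a11, with 399 and 745 CPM, a ratio of 0.536 (0.460 to 0.623). In uninjured gate cells Slc6a11 stood at 1159 CPM, so the comparison cells again lay between. Slc6a11 was lower in members in every one of the 16 other settings, from -1.38 to -0.79 on the log2 scale. Of 10 measured lineage factors, 9 had a log2 ratio at or under 0, with Zbtb20 at a ratio of 0.738 (0.674 to 0.808) and Nfix at 0.999 (0.782 to 1.28). In metabolism, the lactate transporter Slc16a1 had a ratio of 2.93 (1.83 to 4.86) and a log2 ratio of 0.08 with Lcn2 alone. It reached 100 CPM in members alone, so it could be measured only by being higher there. The glycolytic enzyme Aldoc was lower, at 0.652 (0.604 to 0.703).

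Mitochondrial transcripts were lower in members, with 12 of 12 measured genes under a log2 ratio of 0 and a median of -0.35. They made up 7.1% of the gene UMIs of matched members and 9.20% of those of matched comparison cells, and 6.70% in uninjured gate cells. When only cells with at most 10% mitochondrial UMIs were paired (82 pairs), 58 genes were at least 2-fold higher and 28 at least 2-fold lower, of which 40 and 18 were among the 61 and 33. The part of cell quality in the remaining calls was not tested.

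Among the 33 lower genes, Nnat, which encodes the small membrane protein neuronatin, was spread over many cells. It had 187 CPM in members, 889.8 CPM in comparison cells and 57.9 CPM in uninjured cells, a ratio of 0.210 (0.172 to 0.255), and was found in 33.1% and 49.6% of the matched cells. Itih3, a hyaluronan-binding protein chain, had 153, 451 and 639.7 CPM in the same order, a ratio of 0.340 (0.269 to 0.426). Both were lower in members in all 16 other settings. Gria2, an AMPA receptor subunit, and Kcnip4, a potassium channel partner, had ratios of 0.312 (0.204 to 0.465) and 0.349 (0.238 to 0.504). Neither held 2-fold throughout: the log2 ratio of Gria2 was -0.74 in thinned cells, and that of Kcnip4 was -0.24 over all unmatched cells. Egfem1 and the transcription factor gene Zfhx3 completed the 12 lowest, with log2 ratios of -1.70 and -1.32, or -0.73 and -0.64 in thinned cells.

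Several of the lowest ratios rested on few cells. Dcaf17 had 24 and 502 UMIs, but 62.7% of those in comparison cells lay in 1 cell, and in female cells alone its log2 ratio was 0.28. Gmcl1 had 17 and 137 UMIs with 90.5% in 1 comparison cell, and its log2 ratio was 0.10 without the top cells. Single cells also held 41.8% of the comparison UMIs of Spata7, 51.2% of those of Mnat1 and 57.6% of those of Marf1.

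Higher and lower genes differed in genomic span. The 61 higher genes had a median span of 9.99 kb (start to end in GENCODE M21), the 33 lower genes one of 227 kb and all measured genes one of 31.7 kb. Of the lower genes 22 (66.7%) exceeded 100 kb, of the higher genes 1 (1.64%), and of the measured genes with a span 28.5%. The nuclear transcript Malat1 stood at 26096 CPM (25714 to 26484) in members and 28952 CPM (28541 to 29367) in comparison cells, and Neat1 at 426 and 437 CPM. The part of unspliced nuclear RNA in the lower genes was not tested.

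Levels were next followed across cells with 0, 1, 2 to 4 and 5 or more UMIs of the pair, after thinning to 1000 gene UMIs, in 172, 54, 38 and 53 cells. Cells with exactly 1 UMI are those just inside the rule, and cells with 0 those just outside. Lgals1 went from 494 to 1241, 1658 and 1868 CPM over the 4 classes, and S100a11 from 192 to 481, 632 and 717 CPM. Both were already higher in cells with 1 UMI, with intervals that did not overlap those of cells with none. Hspb1 stood at 523 and 574 CPM with 0 and 1 UMI and at 1342 and 2000 CPM in the 2 highest classes, and Tm4sf1 at 40.7, 37.0, 921 and 453 CPM. Vim followed with 901, 1296, 3447 and 2906 CPM. For Gfap the values were 2645, 2722, 4105 and 3019 CPM, with no order over the classes. Among the lower genes, Itih3 went from 343 to 296, 78.9 and 37.7 CPM and Slc6a11 stood at 628 CPM with no UMI and at 316 and 358 CPM in the 2 highest classes.

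**Figure D4:**
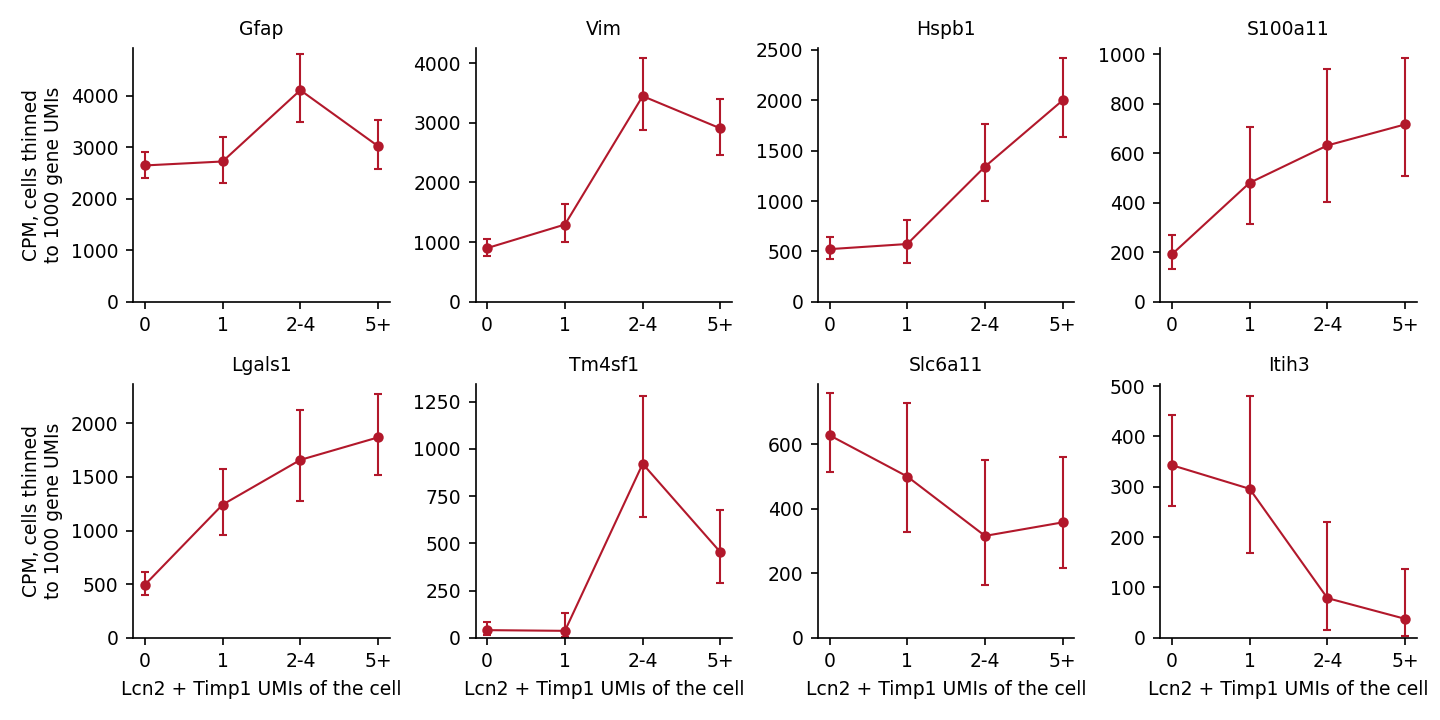
CPM of 8 genes in injured gate cells with 0, 1, 2 to 4 and 5 or more UMIs of Lcn2 and Timp1 together, each cell thinned to 1000 gene UMIs, with exact Poisson 95% intervals of counting error as bars. Lgals1 and S100a11 are higher from 1 UMI on, Hspb1, Vim and Tm4sf1 most clearly from 2 UMIs on, and Gfap shows no order.

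Members with Lcn2 alone, with Timp1 alone and with both were also set side by side, at median depths of 3818, 5540 and 7223 gene UMIs. Tm4sf1 had 66.3 CPM (26.7 to 137) with Lcn2 alone, 589 CPM (539 to 642) with Timp1 alone and 449 CPM (369.6 to 540.2) with both. Vim had 1459, 2906 and 2104 CPM in the same order, and Lgals3 had 28.4, 314 and 152 CPM. Hspb1, at 786, 1005 and 1667 CPM, and Cebpd, at 114, 184 and 389 CPM, were highest in cells with both. Gfap stood at 3296, 2963 and 2501 CPM. The 18 cells with Lcn2 alone are few, and depth differed between these sets.

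Members of both sexes were present in the injured library. Cells were scored female from Xist UMIs in the absence of UMIs from 4 Y-linked genes, and male in the reverse case. Members were 53.8% of 65 female gate cells (41.0 to 66.3) and 48.7% of 117 male ones (39.4 to 58.1), intervals that overlap. No sex was scored for 57 members and 93 comparison cells, at medians of 3488 and 2039 gene UMIs. Female and male members had medians of 10928 and 8844 gene UMIs, and female and male comparison cells 4928 and 5496. The part of depth in the shares and levels by sex was not tested. Female members had 1685 CPM of Vim and male members 3020 CPM, and for Hspb1 the levels were 579.8 and 1161 CPM. Tgm1 stood at 173 CPM in female and 88.9 CPM in male members and Timp1 at 432 and 436 CPM. The study's methods state pools of a few animals with females and males in equal number per condition, but cells are not labelled by animal, so animals and sex cannot be told apart. Within 17 female pairs Vim and Hspb1 remained higher in members, with log2 ratios of 2.79 and 2.84. The uninjured gate held 2607 cells scored male and 2 scored female, which goes against the stated equal numbers. Against these male cells alone, with Vim at 6.39 CPM and Hspb1 at 6.48 CPM, male members again stood higher.

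Against uninjured gate cells, 55 of the 61 higher genes were at least 2-fold higher in members, beside 473 of all 2010 measured genes (23.5%). For 51 of the 61 the level in comparison cells was also above the uninjured one, beside 57.9% of measured genes. Of the 33 lower genes, 18 were at least 2-fold under the uninjured level in members, beside 8.91% of measured genes, and in 16 the comparison cells were under it, beside 41.9%. The choice of the genes by their level in members has a part in these counts, and nothing further is read from them. These are levels of 1 library per condition, so injury cannot be told apart from library, sex and animal. Lcn2 had 451 UMIs in injured gate cells and none in uninjured ones, at least 1077-fold higher with 3 counts over the group as the floor. Timp1 had 584 and 2 UMIs, a ratio of 2092 (577 to 17318). The tdTomato-WPRE reporter was also higher in injured cells, with 2587 CPM in matched members, 2079 CPM in comparison cells and 419 CPM in uninjured cells. The part of viral transcripts with a WPRE element in this difference was not tested.

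Enhancer barcodes, a readout that the rule did not use, were compared last, to ask whether enhancers were more active in members. The labels do not say what the feature names stand for. The numbers of the 19 features named M match those of the study's candidate enhancers of reactive astrocytes, and the 4 named A were taken as its astrocyte controls, an assignment that rests on this match. With the discordant pairs that the study reports, a barcode count can also hold transcripts driven by other enhancers, and their part was not tested. In members M5 had 114 barcode UMIs, A1 104, A5 47, M8 31 and M24 17. In the matched sets M5 had 53 UMIs in members and 59 in comparison cells, a ratio per gene UMI of 0.865 (0.586 to 1.28). The ratio was 1.36 (0.614 to 3.13) for M8, 1.06 (0.409 to 2.78) for M24, 0.828 (0.578 to 1.18) for A1 and 0.876 (0.516 to 1.48) for A5. All 5 intervals include 1, and for M5 a rate in members above 1.28 times that of comparison cells lies outside the interval. This bound is for the rate of barcode UMIs and for counting error only. It sets no limit on a difference in enhancer activity, because the part of free RNA in both rates was not tested. Of the 33 A5 UMIs in comparison cells 12 came from 1 cell, and without the top cell of each set the A5 ratio was 1.30 (0.713 to 2.41). When a member needed at least 3 UMIs of the pair, the A5 ratio was 3.56 (1.13 to 14.7), over 52 pairs.

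Per A5 UMI, the M enhancers together had 2.73 UMIs (1.78 to 4.30) in matched members and 2.55 (1.68 to 3.93) in matched comparison cells. In the 53 members with 5 or more UMIs of the pair, M5 reached 106 barcode UMIs per 1000000 gene UMIs, a ratio to comparison cells of 1.23 (0.858 to 1.76). Barcodes were also found in microglia, which should lack an astrocyte enhancer's product, and all 5 intervals of the rate in members over that in microglia include 1. The ratio of members to microglia was 1.20 (0.927 to 1.55) for M5, 0.937 (0.725 to 1.21) for A1 and 1.23 (0.816 to 1.85) for A5. It was 1.49 (0.872 to 2.55) for M8 and 1.75 (0.812 to 3.83) for M24, on 31 and 17 UMIs in members. M5 was found in 45.0% of members at a median of 5706 gene UMIs and in 68 of 108 microglia cells at 15774. For each of the 5 enhancers taken alone, the level in members is therefore read as not distinguishable from background at this depth. The M features together held 163 UMIs over 1233314 gene UMIs in members and 183 over 1777290 in microglia. This pooled rate was higher in members, and no interval was computed for it. No difference between members and comparison cells was detectable in the matched sets, and the A5 ratio under the limit of 3 UMIs, given above, is the exception among the values shown.

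**Figure D5:**
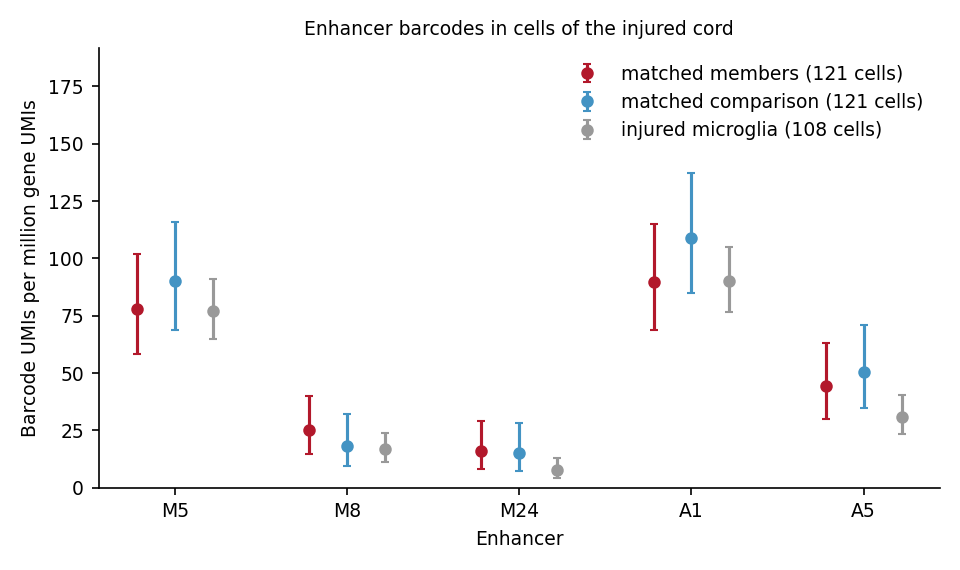
Barcode UMIs per 1000000 gene UMIs of the 5 enhancers with at least 10 UMIs in members, in 121 matched members, 121 matched comparison cells and 108 injured microglia cells, with exact Poisson 95% intervals of counting error. The intervals of members and comparison cells overlap for each enhancer.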

How the data were processed

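Gene and barcode UMI counts were measured in the same tdTomato+ cells, with 1 library pair per condition. The authors deposited raw UMI counts per condition as matrices that were not normalised. Per the file headers they came from Cell Ranger 7.1.0, while the labels name 8.0.1 and mm10. Cells had been called before deposit, and no doublets were removed here. The files held 919 injured cells (11817725 gene UMIs) and 4159 uninjured cells (15543460). Of 32285 Ensembl identifiers, 32158 (99.6%) matched GENCODE M21. The members, gene lists and settings were chosen with earlier results of these data known.

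Members and comparison cells were paired on log2 gene UMIs (121 pairs), and CPM of summed counts were compared with 10 CPM added. Shares have exact Clopper-Pearson, sums exact Poisson and ratios exact conditional binomial 95% intervals, for counting error only. No p-values were computed from cells. The genes named were taken from the 12 highest and 12 lowest log2 ratios, the 6 markers, of each list the 2 highest and 2 lowest, and enhancers with at least 10 UMIs in members. Some list genes that this rule would name are not reported here. Genes named outside this rule (Malat1, Neat1 and single genes of a list) were chosen after their values were seen. On simulated data of 2010 genes with 200 changed 4-fold, all 200 were called in the right direction and the intervals covered 96.1% of the true ratios. The simulated counts were Poisson draws at 1 rate per gene in each set, without the spread between cells seen in the data. That coverage therefore does not carry over to genes whose UMIs lie in few cells. Thinning drew 1000 gene UMIs per cell once. Tools were Python 3.11.15, numpy 2.4.6, scipy 1.17.1, pandas 2.3.3 and edgeR 4.0.16 (TMM scaling only).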

Additional observations from a re-analysis of the deposited data

Results flagged for a closer look

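Lcn2 and Timp1 UMIs also occurred in injured cells that the comparisons do not use. Of 547 kept injured cells outside the astrocyte gate, 152 (27.8%, 24.1 to 31.7) had a UMI of either gene, against 7 of 347 (2.02%, 0.815 to 4.11) in the uninjured library. Among those with a Col3a1 UMI, a fibroblast collagen, Timp1 reached 547 CPM and Lcn2 8.19 CPM, and among those with a Cldn5 UMI, an endothelial gene, Timp1 reached 56.8 CPM and Lcn2 105 CPM. Of the 40 injured cells with 50000 gene UMIs or more, which the rule leaves out, 39 (97.5%) had a UMI of either gene at a median depth of 73304, with Timp1 at 889 CPM and Lcn2 at 7.84 CPM. These cells are far deeper than the members, and their number of UMIs per cell was not compared at like depth.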

How the results depend on the processing

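Under 16 other settings, 2 of them chosen after seeing the data (leaving out each gene's top cell, and cells with at most 10% mitochondrial UMIs), 31 to 37 of the 37 named genes at least 2-fold apart kept their direction in each. Fewer of the 37 stayed at least 2-fold apart in some settings. These were 15 with Lcn2 alone as the selecting gene, 25 in female cells, 28 in male cells and 29 in thinned cells, against 31 to 37 in the other settings. The 11 settings that bear on the barcodes gave M5 ratios of 0.712 to 1.09 and A1 ratios of 0.787 to 1.07, within the intervals of the report. The count of genes at least 2-fold higher, 61 in the report, was 164 with all cells thinned, 149 and 210 when a member needed 2 or 3 UMIs, 39 with Lcn2 alone as the selecting gene, 219 in female and 115 in male cells, 96 at a limit of 50 CPM and 204 with no limit. The count lower, 33 in the report, was 79 with all cells thinned, 20 without pairing, 93 and 151 with 2 or 3 UMIs, 176 in female and 60 in male cells, 69 at 50 CPM and 214 with no limit. Female and male cells gave 17 and 46 pairs and the 3-UMI rule 52, and fewer UMIs spread ratios more widely. The member share was 20.2% in thinned cells, 33.9% and 27.1% with 2 or 3 UMIs, 14.8% with Lcn2 alone, 53.8% in female cells and 55.1% in cells of low mitochondrial share. The Gfap log2 ratio was 0.41 in thinned cells, 0.07 without pairing, -0.06 with 3 UMIs, -0.05 with Lcn2 alone, -0.48 in female cells and -0.05 in cells of low mitochondrial share. The A5 ratio was 0.508 in thinned cells, 3.56 with 3 UMIs, 3.88 in female cells and 1.78 in cells of low mitochondrial share.

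Single genes at least 2-fold apart changed sign as follows, with causes not tested. Among female cells the log2 ratio was -0.99 for Stmn2, 0.28 for Dcaf17, 0.94 for Gmcl1, 0.54 for Mnat1, 0.95 for Marf1 and 0.37 for Fos. With Lcn2 alone it was -0.00 for Nes, 0.47 for Spata7, 0.47 for Marf1, 0.06 for Kcnip4 and -1.22 for Lgals3. Gmcl1 was 0.19 under the stricter gate, 0.06 in male cells, 0.10 without its top cells and 0.17 in cells of low mitochondrial share, and Fos was 0.45 without pairing. No paired analysis was possible because there was 1 library for each condition. Depth limits the enhancer readout, with at most 114 UMIs of an enhancer in members.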
